A study of Homo sapiens with 6 samples.

Results

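The 10 genes described here encode enzymes that build polyunsaturated and ether phospholipids or feed electrons into their peroxidation: ACSL4, ACSL3, LPCAT3, ELOVL5, FADS1, FADS2, AGPS, FAR1, POR and CYB5R1. They were taken by symbol from a table of 62703 genes, where each symbol had 1 row, and all 10 were measured above the filter used for testing. RNA sequencing was done on 786-O, an established line from a human clear cell renal carcinoma. There were 3 libraries from cells that overexpress OGT (the transferase for O-linked N-acetylglucosamine on proteins) and 3 libraries from control cells whose genotype is labelled WT and whose titles read NC. Both groups were grown in RPMI-1640 with 10% fetal bovine serum, and no drug, hypoxia or ferroptosis inducer is named in the labels. The labels do not state the vector, the promoter driving OGT, or whether each group is 1 clone or a pool. The title of the series concerns OGT, HIF-2α and ferroptosis, the form of cell death in which iron-driven oxidation destroys membrane lipids.

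Ferroptosis needs membrane phospholipids that carry polyunsaturated fatty acids, because these are readily oxidized. FADS2, ELOVL5 and FADS1 desaturate and lengthen dietary fatty acids into long polyunsaturated ones, ACSL4 activates these with coenzyme A, and LPCAT3 places them into phospholipids. FAR1 and AGPS act at peroxisomes to make ether lipids, including plasmalogens, which can also carry polyunsaturated chains, and POR and CYB5R1 are flavoproteins of the endoplasmic reticulum that pass electrons from NADPH and NADH and can thereby supply hydrogen peroxide. ACSL3 is the opposing arm, known for activating monounsaturated fatty acids that displace polyunsaturated ones from membranes.

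Values are TPM, a transcript abundance scaled by gene length and library, so levels can be set side by side between genes. Changes are differences of mean log2(TPM + 1), OGT overexpressing minus control, a scale that shrinks the change of low genes, and p-values come from limma fitted on all 12645 tested genes with Benjamini-Hochberg adjustment and a threshold of 0.05. The OGT transcript itself was 352.74, 352.92 and 270.87 TPM in the OGT overexpressing libraries, against 23.11, 22.57 and 23.62 TPM in the control libraries. The table gives no read totals, so sequencing depth is unknown. Across all tested genes the median log2 change was 0.30, so a change near that value is typical of these libraries, and changes ran with low GC content and long transcripts (Spearman correlations across genes of -0.47 and 0.39). For that reason each change is given also after removing, library by library, the trend with GC content and length, called the corrected change below. The 8 markers chosen for renal tubule and clear cell renal carcinoma (among them PAX8, VIM and KRT18) were at 1 TPM or more in every library. They summed to 4724 to 4737 TPM in OGT overexpressing and 3766 to 4034 TPM in control libraries. Most of that sum was VIM, KRT8 and KRT18, so it says little about the other markers. Within that sum VIM was higher in every OGT overexpressing library (2761 to 2781 TPM, against 1759 to 1959 TPM in control libraries), while KRT8 was lower, at 1186 to 1225 TPM in OGT overexpressing and 1250 to 1323 TPM in control libraries. KRT18 was likewise lower, at 440.2 to 488 TPM in OGT overexpressing and 581 to 605 TPM in control libraries. PAX8, CA12 and EGFR were also higher in every OGT overexpressing library (EGFR at 25.35 to 30.85 TPM, against 9.63 to 9.66 TPM in control libraries). PAX2 and CDH6 overlapped between the groups, with CDH6 at 28.69 TPM in control replicate 2 and at 2.69 and 3.05 TPM in the other control libraries. The 3 immune markers summed to 0.24 to 0.39 TPM in OGT overexpressing libraries and to 0.22, 0.28 and 12.65 TPM in control libraries, the last value coming from PTPRC at 12.23 TPM in control replicate 1. The 4 endothelial markers summed to 0.25 to 2.77 TPM in OGT overexpressing and 0.85 to 8.68 TPM in control libraries, with CDH5 at 0 throughout. The 8.68 TPM was again in control replicate 1 (PECAM1 at 4.22 and KDR at 3.91 TPM), and the 4 fibroblast markers summed to 0.83 to 3.04 TPM in OGT overexpressing and 0.14 to 2.44 TPM in control libraries. Their part in the results was not tested. Nothing in the labels says that replicates were separate cultures, so the p-values rest on a spread between libraries that may be technical.

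All 10 enzymes had higher TPM in each OGT overexpressing library than in any control library, a separation that 46.2% of tested genes showed in the same direction. By limma 9 of the 10 rose, against a background of 39.1% of tested genes called higher, and 0 fell, against 9.70% called lower (0 members also at an unadjusted p below 0.05 with a negative change). The median log2 change of the 10 was 0.77. With 1 library left out, 6 to 8 members were called higher, beside 30.8% to 36.4% of tested genes. FAR1 passed the filter through the OGT overexpressing group. After the GC and length correction 4 of the 10 were called higher, AGPS, LPCAT3, FADS1 and CYB5R1, against 16.0% of tested genes, and 0 lower, against 12.8%. The median of the members was then 0.32, beside 0.03 for all tested genes. Quantile normalization gave 5 members higher and 0 lower, against 20.2% and 17.8% of tested genes, and median centring gave 5 higher and 2 lower (FADS2 and POR), against 15.3% and 24.2%. Over all tested genes 4941 were called higher and 1227 lower as deposited, against 1974 and 1582 after the correction, 2558 and 2245 after quantile normalization, and 1937 and 3066 after median centring. Because the members were picked with earlier results known, these counts are a description.

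**Figure D1:**
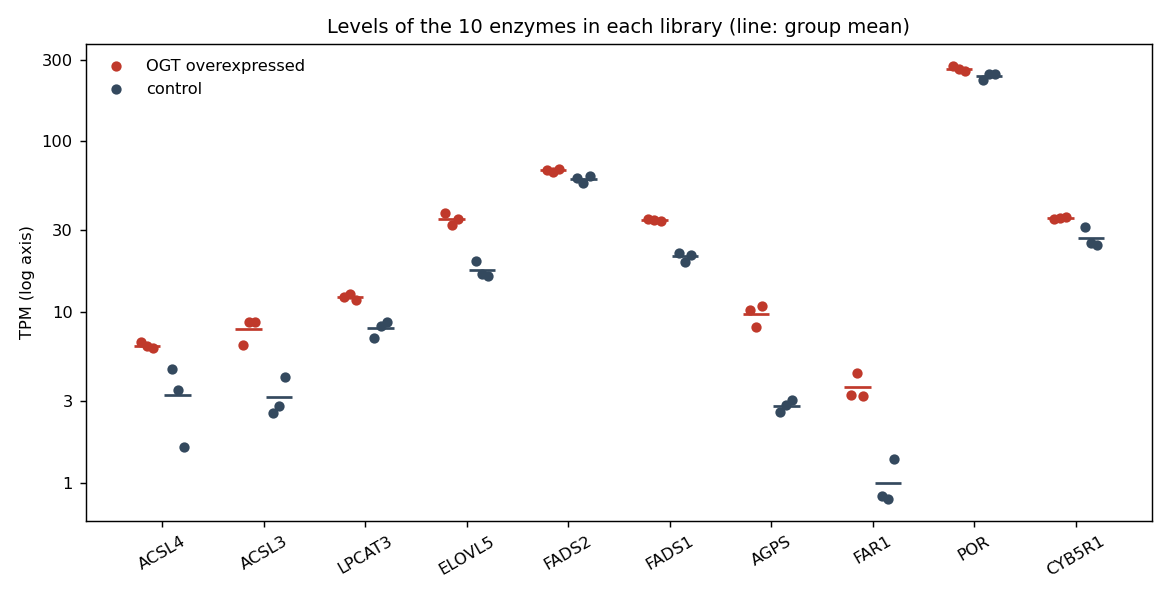
TPM of each enzyme (log axis) in the 3 OGT overexpressing libraries (red, left) and the 3 control libraries (dark, right), with a line at each group mean. Levels span from about 1 TPM for FAR1 in control cells to 277 TPM for POR in OGT overexpressing cells. The 2 groups do not overlap for any enzyme, a separation that 46.2% of tested genes showed in the same direction.

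Promoter sequences of 3 genes are shown because they belong to the ether lipid pair with the largest changes and to ACSL4, the gene most closely tied to ferroptosis. Each is the 250 bases before the RefSeq start on GRCh38.p14, written 5′ to 3′ on the gene's strand, with CCAAT on either strand (CCAAT or ATTGG) in capitals. AGPS lies at chr2:177392523-177392772 on the plus strand, FAR1 at chr11:13668418-13668667 on the plus strand and ACSL4 at chrX:109733258-109733507 on the minus strand. For AGPS and ACSL4 the RefSeq start lies inside the gene as GENCODE release 29 draws it, so part of the window falls within the GENCODE gene.
AGPS: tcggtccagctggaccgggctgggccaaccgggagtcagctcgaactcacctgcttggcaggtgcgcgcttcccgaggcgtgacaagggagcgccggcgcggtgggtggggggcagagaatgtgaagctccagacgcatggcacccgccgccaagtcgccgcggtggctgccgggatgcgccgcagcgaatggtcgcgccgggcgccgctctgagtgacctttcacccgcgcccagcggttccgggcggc
FAR1: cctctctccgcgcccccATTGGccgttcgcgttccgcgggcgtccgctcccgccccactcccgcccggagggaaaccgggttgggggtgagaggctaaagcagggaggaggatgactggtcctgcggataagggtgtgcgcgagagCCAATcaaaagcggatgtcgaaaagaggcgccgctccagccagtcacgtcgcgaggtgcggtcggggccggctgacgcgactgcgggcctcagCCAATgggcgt
ACSL4: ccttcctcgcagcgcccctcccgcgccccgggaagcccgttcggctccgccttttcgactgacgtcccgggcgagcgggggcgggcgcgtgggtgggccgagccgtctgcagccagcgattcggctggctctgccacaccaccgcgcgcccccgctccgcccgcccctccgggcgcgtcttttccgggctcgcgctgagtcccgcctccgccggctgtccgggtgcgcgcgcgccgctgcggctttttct
The FAR1 window held 3 CCAAT matches and the AGPS and ACSL4 windows 0. Of the 8 members matched in RefSeq (all but POR and CYB5R1), 4 held CCAAT (ACSL3, ELOVL5, FAR1 and LPCAT3), a motif present in 32.0% of 35116 windows of the same length. GGGCGG on either strand was in windows of 7 of the 8 members and in 42.6% of all windows, the hypoxia element core ACGTG in 2 of 8 (ELOVL5 and FAR1) and 18.5%, and CACGTG, which contains that core, in ELOVL5 and 6.35%. TGACGT was in ACSL4, ELOVL5 and FADS1 and in 7.10% of all windows. For the sterol regulatory element an exact spelling was searched on both strands, with no variant letters allowed. It was in 0 of the 8 members' windows and in 12 of all 35116 windows (0.034%). With so rare a spelling, 0 of 8 would be found for nearly any genes. The search therefore cannot tell whether the members' promoters hold a sterol element. All these motif counts are letter matches and no measure of factor binding.

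The ether lipid pair had the largest changes of the set. AGPS (ENSG00000018510, chromosome 2, 177392644 to 177559299, plus strand, GENCODE release 29 on GRCh38), which forms the ether bond, was 10.24, 8.22 and 10.78 TPM in OGT overexpressing libraries, against 2.58, 2.85 and 3.06 TPM in control libraries. Every OGT overexpressing value was above every control value by a wide margin, with means of 9.75 ± 1.35 TPM in OGT overexpressing and 2.83 ± 0.241 TPM in control cells (SD, n = 3 each, as for all means ± SD that follow). AGPS rose by 1.48 on the log2 scale (SE 0.156, adjusted p = 4.49e-04), larger than that of 98.2% of tested genes. It remained called after the correction, at 0.72 (adjusted p = 0.0162). On the opposite strand AGPS shares 54 exonic bases with NFE2L2, which was 8.43, 8.28 and 9.04 TPM in OGT overexpressing and 3.51, 3.89 and 3.68 TPM in control libraries, and whether the counting used strand is not stated.

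FAR1 (ENSG00000197601, chromosome 11, 13668670 to 13732346, plus strand), which reduces fatty acyl-CoA to the fatty alcohol that AGPS needs, was the lowest of the 10 enzymes. It was 3.28, 4.39 and 3.20 TPM in OGT overexpressing libraries, against 0.84, 0.80 and 1.37 TPM in control libraries, with no overlap. FAR1 rose by 1.21 (SE 0.207, adjusted p = 0.00319), but reached 1 TPM in only 1 control library, so it passed the filter on low values through the OGT overexpressing group. Its corrected change of 0.60 was not called (adjusted p = 0.071). FAR1 has the lowest transcript GC content of the set, at 31.3%, and its pseudogene FAR1P1 and intronic transcript FAR1-IT1 were listed at 0 in every library. The log2 ratio of AGPS to FAR1 within a library, taken like the other ratios on TPM + 1, was 1.39, 0.77 and 1.49 in OGT overexpressing cells and 0.96, 1.10 and 0.78 in control cells, and these overlap (exact permutation p = 0.4, two-sided, Benjamini-Hochberg adjusted p = 0.533 over 8 ratios and shares; the smallest p that 3 against 3 allows is 0.1). The difference between groups was 0.27, and with a pseudocount of 0.1 it turned to -0.03.

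Of 18 other genes of ether lipid and plasmalogen synthesis 16 were tested. By limma 4 rose, 2 fell and 10 did not pass, beside 39.1% called higher and 9.70% called lower over all tested genes, and the median log2 change was 0.35, beside 0.30. GNPAT, the acyltransferase that starts the peroxisomal route, was 15.5 ± 0.988 TPM in OGT overexpressing and 8.72 ± 1.09 TPM in control cells (log2 change 0.77, adjusted p = 0.00236). PEDS1, which introduces the vinyl ether bond of plasmalogens, was 10.7 ± 1.14 TPM in OGT overexpressing and 6.38 ± 0.673 TPM in control cells (log2 change 0.67, adjusted p = 0.0064). DHRS7B, a reductase of the route, fell to 24.3 ± 2.31 TPM in OGT overexpressing cells, against 32.99 ± 0.761 TPM in control cells (log2 change -0.43, adjusted p = 0.00669). FAR2, the paralog of FAR1, reached at most 0.08 TPM. After the correction 0 of the 16 were called higher, beside 16.0% of all tested genes. DHRS7B alone was still called lower (-0.61, adjusted p = 0.0027), beside 12.8% of all tested genes.

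The genes that make long polyunsaturated fatty acids rose by unequal amounts. ELOVL5 (ENSG00000012660, chromosome 6, 53267398 to 53349179, minus strand), which elongates polyunsaturated fatty acids, was 37.74, 32.32 and 34.83 TPM in OGT overexpressing libraries, against 19.89, 16.62 and 16.31 TPM in control libraries. Its lowest OGT overexpressing value exceeded its highest control value by more than the spread within either group, and it rose by 0.95 (SE 0.105, adjusted p = 5.46e-04). The corrected change was 0.31, just past the threshold on the uncalled side (adjusted p = 0.0505).

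FADS1 (ENSG00000149485, chromosome 11, 61799625 to 61829318, minus strand), the desaturase of the last step before arachidonic acid, was 34.86, 34.41 and 34.20 TPM in OGT overexpressing libraries, against 22.08, 19.69 and 21.70 TPM in control libraries. The values within each group were tight, and FADS1 rose by 0.68 (SE 0.0756, adjusted p = 5.52e-04), with a corrected change of 0.24 (adjusted p = 0.0427). FADS2 (ENSG00000134824, chromosome 11, 61792980 to 61867354, plus strand), the desaturase of the first step, was 67.77, 66.34 and 68.69 TPM in OGT overexpressing libraries, against 61.18, 57.19 and 62.20 TPM in control libraries. The groups did not overlap, but the change of 0.17 (95% interval 0.03 to 0.30, adjusted p = 0.0476) was below the median of all tested genes. It was not called when any 1 library was left out (control replicate 1, 2 or 3 or OGT overexpressing replicate 1, 2 or 3; adjusted p from 0.0592 to 0.146) or after the correction (0.03, adjusted p = 0.765), and it turned negative under quantile normalization (-0.0081) and median centring (-0.22, adjusted p = 0.0185).

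The balance between the desaturases can be read within a library, where library scaling nearly cancels. The log2 ratio of FADS1 to FADS2 (TPM + 1) was -0.94, -0.93 and -0.99 in OGT overexpressing libraries, against -1.43, -1.49 and -1.48 in control libraries. The groups were separate, by 0.52 on average, and the exact permutation p = 0.1 was the smallest possible with 3 against 3 (Benjamini-Hochberg adjusted p = 0.267). The FADS1 and FADS2 loci overlap on opposite strands, with 490 shared exonic bases in GENCODE release 29. FADS2 also shares 49 exonic bases with FEN1 on its own strand. FEN1 was 52.74 to 53.58 TPM in OGT overexpressing and 36.25 to 40.51 TPM in control libraries. The longest transcripts of the 2 desaturases differ in GC content, 50.1% for FADS1 and 60.7% for FADS2. The corrected changes, 0.24 for FADS1 and 0.03 for FADS2, lie closer together than the changes as deposited, 0.68 and 0.17. Within the 7 ELOVL genes, ELOVL5 made up 11.9%, 10.4% and 11.6% of summed TPM in OGT overexpressing libraries, against 8.38%, 6.83% and 5.93% in control libraries. These shares did not overlap (exact permutation p = 0.1, adjusted p = 0.267), and the lowest, in control replicate 3, coincided with ELOVL6 at 56.88 TPM there and at 8.65 and 12.93 TPM in the other control libraries.

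**Figure D2:**
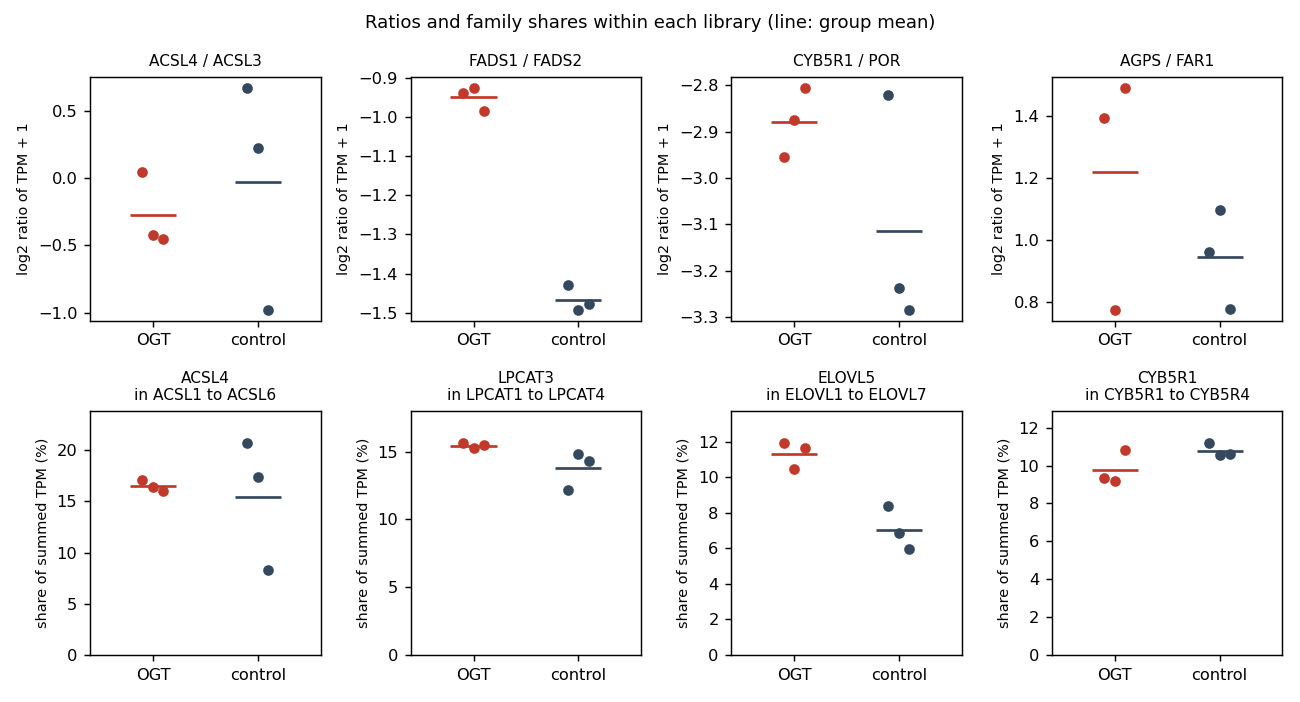
Log2 ratios of enzyme pairs (on TPM + 1) and each enzyme's share of its family's summed TPM (%), per library, in OGT overexpressing cells (red, left) and control cells (dark, right), with lines at group means. FADS1 to FADS2, the LPCAT3 share and the ELOVL5 share separate the groups, and the other 5 overlap.

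Of 16 further genes of elongation and desaturation 12 were tested, and 7 rose while 2 fell (median log2 change 0.40), beside 39.1% and 9.70% of all tested genes. ELOVL2, among the 7, was below 1 TPM in every control library and passed the filter through the OGT overexpressing libraries. SCD, the desaturase that makes monounsaturated fatty acids, was 44.9 ± 2.15 TPM in OGT overexpressing and 22.2 ± 0.803 TPM in control cells (log2 change 0.98, adjusted p = 1.38e-04, corrected 0.39). HACD3, a dehydratase of the elongation cycle, was 19.99 ± 0.459 TPM in OGT overexpressing and 9.27 ± 0.825 TPM in control cells (log2 change 1.03, adjusted p = 3.51e-04, corrected 0.39). HSD17B12, the ketoacyl reductase of the same cycle, was 15.6 ± 1.46 TPM in OGT overexpressing and 6.86 ± 0.51 TPM in control cells (log2 change 1.08, adjusted p = 5.45e-04, corrected 0.48), and all 3 remained called after the correction.

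The acyl-CoA synthetases ACSL4 and ACSL3, which act in opposite directions on membrane unsaturation, had similar levels and both rose as deposited. ACSL4 (ENSG00000068366, chromosome X, 109624244 to 109733403, minus strand) was 6.64, 6.30 and 6.13 TPM in OGT overexpressing libraries, against 4.64, 3.47 and 1.63 TPM in control libraries. The groups did not overlap; the control values were widely spread, with replicate 3 lowest, while the OGT overexpressing values were close together. ACSL4 rose by 0.86 (SE 0.282, adjusted p = 0.0403). It lost its call without OGT overexpressing replicate 1, 2 or 3, or control replicate 2 (adjusted p from 0.0666 to 0.105), and its change was 0.55 without control replicate 3. The corrected change was 0.10 (adjusted p = 0.814), the value nearest 0 after FADS2.

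ACSL3 (ENSG00000123983, chromosome 2, 222860934 to 222944639, plus strand) was 6.42, 8.76 and 8.75 TPM in OGT overexpressing libraries, against 2.55, 2.82 and 4.18 TPM in control libraries. The groups did not overlap, and ACSL3 rose by 1.11 (SE 0.207, adjusted p = 0.00453), with a corrected change of 0.34 that was not called (adjusted p = 0.281). The log2 ratio of ACSL4 to ACSL3 (TPM + 1) was 0.04, -0.42 and -0.45 in OGT overexpressing libraries, against 0.67, 0.23 and -0.98 in control libraries. These ratios overlap across their whole range (difference -0.25, exact permutation p = 0.6, adjusted p = 0.686), the control spread being 0.852 (SD). ACSL4 made up 17.1%, 16.4% and 15.98% of the summed TPM of ACSL1, ACSL3, ACSL4, ACSL5 and ACSL6 in OGT overexpressing libraries, against 20.7%, 17.4% and 8.29% in control libraries, again with overlap (exact permutation p = 1).

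LPCAT3 (ENSG00000111684, chromosome 12, 6976186 to 7018510, minus strand), which esterifies polyunsaturated acyl groups to lysophospholipids, was 12.20, 12.78 and 11.69 TPM in OGT overexpressing libraries, against 7.04, 8.33 and 8.72 TPM in control libraries. The groups did not overlap, and LPCAT3 rose by 0.55 (SE 0.12, adjusted p = 0.00835), with a corrected change of 0.39 (adjusted p = 0.047). Its call was lost under quantile normalization (0.17, adjusted p = 0.329) and median centring (0.17, adjusted p = 0.337). Of its 4725 exonic bases 3100 are shared with EMG1 on the other strand, which was 9.14, 7.16 and 7.84 TPM in OGT overexpressing and 8.69, 7.65 and 10.08 TPM in control libraries. LPCAT3 was 15.6%, 15.3% and 15.5% of the summed TPM of LPCAT1 to LPCAT4 in OGT overexpressing libraries and 12.2%, 14.8% and 14.3% in control libraries, without overlap (exact permutation p = 0.1, adjusted p = 0.267).

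Of 17 further acyl-CoA synthetases, acyltransferases and phospholipases 15 were tested, and 8 rose and 0 fell (median log2 change 0.64), beside 39.1% and 9.70% of all tested genes. MBOAT1 and LPGAT1, among the 8, passed the filter through the OGT overexpressing libraries, as FAR1 did. MBOAT7, which places arachidonic acid into phosphatidylinositol, was 159.6 ± 9.34 TPM in OGT overexpressing and 95.2 ± 10.8 TPM in control cells (log2 change 0.74, adjusted p = 7.09e-04, corrected 0.74). AGPAT3, an acyltransferase of phospholipid synthesis, was 38.2 ± 2.57 TPM in OGT overexpressing and 21.3 ± 2.09 TPM in control cells (log2 change 0.82, adjusted p = 6.98e-04, corrected 0.51). ACSL1 was 13.6 ± 0.11 TPM in OGT overexpressing and 7.80 ± 0.154 TPM in control cells (log2 change 0.73, adjusted p = 0.00116), and its corrected change of 0.09 was not called (adjusted p = 0.505). After the correction 3 of the 15 were called higher and 0 lower, beside 16.0% and 12.8% of all tested genes.

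Among the 10 enzymes the electron donors, POR and CYB5R1, had small changes as deposited. POR (ENSG00000127948, chromosome 7, 75899200 to 75986855, plus strand), the reductase that serves microsomal cytochromes P450, was the most abundant of the 10, at 276.82, 265.19 and 256.93 TPM in OGT overexpressing libraries, against 227.51, 246.71 and 248.90 TPM in control libraries. The lowest OGT overexpressing value lay just above the highest control value, and POR was the 1 enzyme not called (log2 change 0.14, 95% interval 0.02 to 0.27, adjusted p = 0.0544). The corrected change of POR was 0.13 and not called (adjusted p = 0.0712). POR was called without OGT overexpressing replicate 3 (0.17, adjusted p = 0.0484), and was called lower after median centring (-0.25, adjusted p = 0.0164). CYB5R1 (ENSG00000159348, chromosome 1, 202961869 to 202967280, minus strand), an NADH-dependent reductase, was 34.85, 35.31 and 35.87 TPM in OGT overexpressing libraries, against 31.34, 25.26 and 24.66 TPM in control libraries. The groups did not overlap, with control replicate 1 the nearest to the OGT overexpressing values. CYB5R1 rose by 0.38 (SE 0.102, adjusted p = 0.0197), with a corrected change of 0.35 (adjusted p = 0.0405). The call was lost without OGT overexpressing replicate 1, 2 or 3, or control replicate 2 or 3 (adjusted p from 0.0521 to 0.0628), and the change was -0.00904 after median centring.

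The log2 ratio of CYB5R1 to POR (TPM + 1) was -2.95, -2.87 and -2.81 in OGT overexpressing libraries and -2.82, -3.24 and -3.28 in control libraries, with overlap (exact permutation p = 0.3, adjusted p = 0.48). CYB5R1 was 9.36%, 9.18% and 10.8% of the summed TPM of CYB5R1 to CYB5R4 in OGT overexpressing libraries and 11.2%, 10.6% and 10.6% in control libraries (exact permutation p = 0.3, adjusted p = 0.48). Among 12 further electron donors and partners, all tested, 8 rose and 2 fell (median log2 change 0.60), beside 39.1% and 9.70% of all tested genes. CYB5R4, among the 8, reached 1 TPM in 1 control library and passed the filter through the OGT overexpressing ones. TXNRD1, the cytosolic thioredoxin reductase, was 128.3 ± 4.59 TPM in OGT overexpressing and 49.8 ± 4.21 TPM in control cells (log2 change 1.35, adjusted p = 5.28e-05, corrected 0.70). The haem oxygenases, which take electrons from POR, moved in opposite directions: HMOX1 was 447.6 ± 14.3 TPM in OGT overexpressing and 266.3 ± 0.947 TPM in control cells (log2 change 0.75, adjusted p = 4.32e-05, corrected 0.81), and HMOX2 was 102.8 ± 2.95 TPM in OGT overexpressing and 143.9 ± 1.75 TPM in control cells (log2 change -0.48, adjusted p = 2.93e-04, corrected -0.50).

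**Figure D3:**
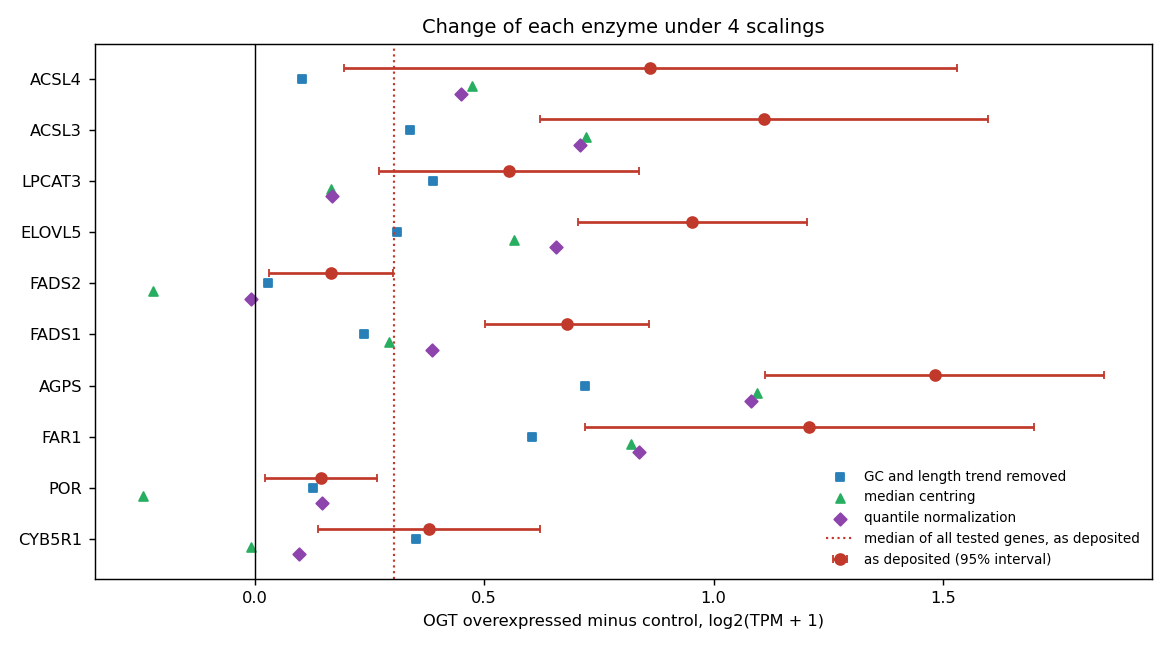
Log2 change of each enzyme (horizontal axis, OGT overexpressing minus control) as deposited with its 95% interval (red) and after removal of the GC and length trend (blue squares), median centring (green triangles) and quantile normalization (purple diamonds). AGPS, at 1.48 as deposited and 0.72 corrected, lies farthest right, while FADS2 and POR lie left of the median of all tested genes (0.30) as deposited.

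Genes on the list of lipid-oxidizing enzymes were mostly near or at 0 TPM, but the list also holds partners that do not oxidize lipids themselves. Of 13 lipoxygenases, cyclooxygenases, NADPH oxidases and partners 4 were tested, with 1 higher and 1 lower. The 2 not called were ALOX5AP, a partner at 37.60 to 42.62 TPM over all libraries, and PTGS1, a cyclooxygenase at 2.42 to 3.56 TPM. Over all tested genes 39.1% were called higher and 9.70% lower. ALOX5, ALOX12, ALOX12B, ALOX15B, PTGS2, NOX1, NOX4 and CYBB stayed below 1 TPM in every library, and ALOX15 was listed at 6.91 TPM in OGT overexpressing replicate 1 and at 0 in the other 5 libraries. ALOXE3, a lipoxygenase known from epidermis, was 3.75, 5.14 and 6.98 TPM in OGT overexpressing libraries, against 1.75, 1.84 and 3.01 TPM in control libraries (log2 change 0.96, adjusted p = 0.019). ALOXE3 was not called without OGT overexpressing replicate 2 or 3, or control replicate 1 or 2, nor after the correction (0.81, adjusted p = 0.0582). PEBP1, which binds lipoxygenases, was 170.4 ± 5.98 TPM in OGT overexpressing and 228.3 ± 3.38 TPM in control cells (log2 change -0.42, adjusted p = 4.03e-04, corrected -0.43).

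ACSL3, FADS1, FADS2 and ELOVL5 are among genes known to respond to SREBP or LXR transcription factors. Of 15 regulators and targets on that list 14 were tested, and 8 rose and 0 fell, with a median log2 change of 0.47, beside 39.1% higher and 9.70% lower over all tested genes. SREBF2, which encodes the sterol-sensing factor, was 48.0 ± 3.77 TPM in OGT overexpressing and 35.0 ± 3.24 TPM in control cells (log2 change 0.45, adjusted p = 0.00741). SREBF1 was 35.1 ± 5.67 TPM in OGT overexpressing and 25.04 ± 5.02 TPM in control cells (log2 change 0.48, adjusted p = 0.0493) and lost its call when any of 4 libraries was left out (OGT overexpressing replicate 1 or 2, control replicate 1 or 3). MBTPS1, a protease that releases SREBP proteins, was 37.6 ± 2.37 TPM in OGT overexpressing and 22.6 ± 0.385 TPM in control cells (log2 change 0.71, adjusted p = 4.71e-04, corrected 0.31). MBTPS2, the second such protease, was 2.53 ± 0.101 TPM in OGT overexpressing and 0.873 ± 0.172 TPM in control cells (log2 change 0.92, adjusted p = 0.00514). It reached 1 TPM in 1 control library, so it too passed the filter through the OGT overexpressing group. FASN, the fatty acid synthase, was 34.9 ± 2.54 TPM in OGT overexpressing and 24.98 ± 1.71 TPM in control cells (log2 change 0.47, adjusted p = 0.00465). After the correction SREBF1, SREBF2, MBTPS2 and FASN were not called (adjusted p from 0.0551 for FASN to 0.388 for MBTPS2) and 2 of the 14 were called higher, beside 16.0% of all tested genes.

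**Figure D4:**
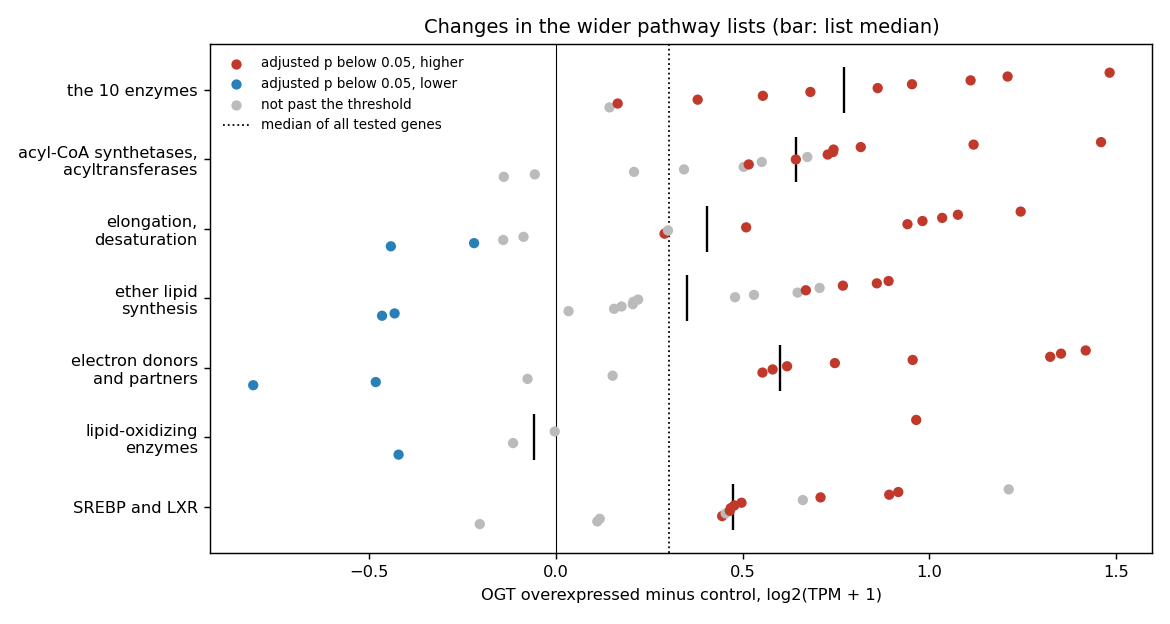
Log2 change (OGT overexpressing minus control) of the 10 enzymes and of each tested gene in 6 wider lists, coloured by call, with a bar at each list's median and a dotted line at the median of all tested genes (0.30). Under the filter used for testing, with no library left out, the 10 enzymes have the highest median, 0.77. The list of lipid-oxidizing enzymes and partners has the lowest, -0.06. The 10 enzymes were picked with earlier results known, so this order is a description. At a mean of at least 5 TPM their median was 0.6177. That was below the 0.6424 of the acyl-CoA synthetase and acyltransferase list and the 0.6189 of the electron donor list. Without control replicate 3 the median of the 10 was 0.65, below the 0.69 of the acyl-CoA synthetase and acyltransferase list.

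The order of the changes among the 10 enzymes ran with the GC content of their transcripts. The 5 members of at most 45% GC (FAR1, AGPS, ACSL4, ACSL3 and ELOVL5) had log2 changes of 0.86 to 1.48, and the 5 above it (FADS1, LPCAT3, CYB5R1, FADS2 and POR) had changes of 0.14 to 0.68, with no overlap between them. Over all tested genes the median was 0.69 at or below 45% GC and -0.00038 above 60% GC. The coordinates and transcripts come from GENCODE release 29, and the authors' own annotation is not given in the sources used here. Reference transcripts need not be those the cells express, so a corrected value for a single gene depends on that choice. AGPS and FADS1 were called higher in every fit made, under each scaling, filter, pseudocount, left-out library and the replicate block.

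**Figure D5:**
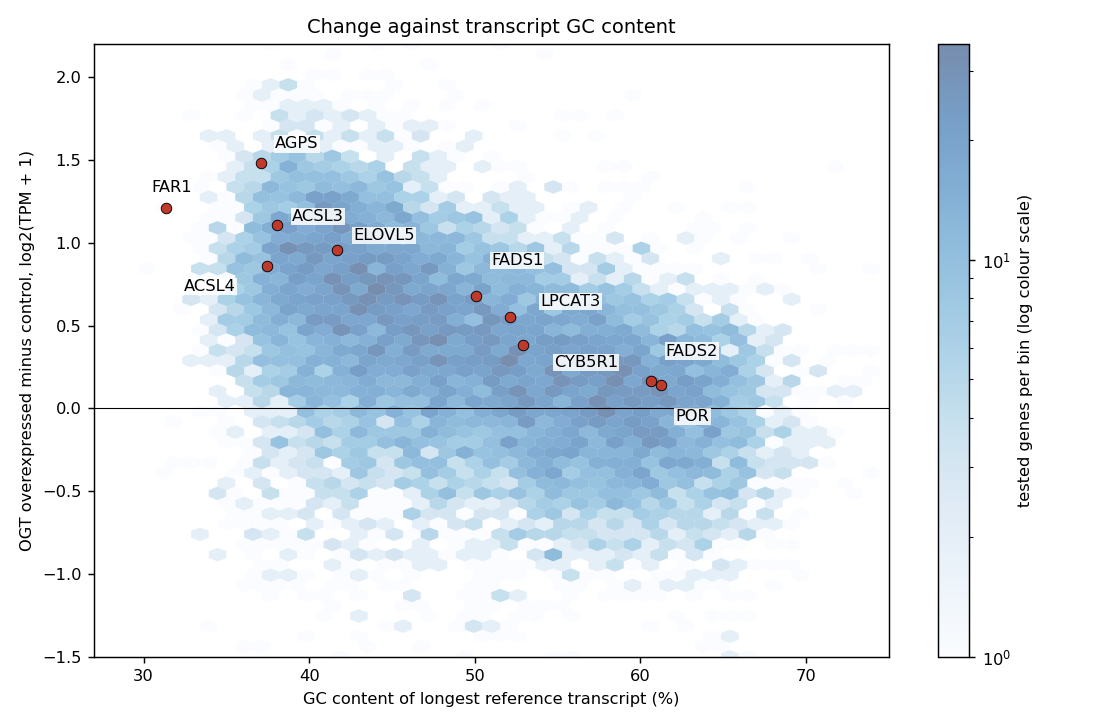
Log2 change (OGT overexpressing minus control) against GC content (%) of each gene's longest reference transcript, with tested genes as shaded bins and the 10 enzymes in red. The 5 enzymes of at most 45% GC lie at 0.86 to 1.48, and the 5 above 45% GC lie lower, at 0.14 to 0.68.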

How the data were processed

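Polyadenylated or total RNA selection is not stated beyond a TruSeq RNA kit and 1 μg of total RNA, per the labels' protocols. The deposited table holds TPM, with a column for each library; the unit was read from the values, since each column sums to between 993935.5 and 996951.6. How the authors aligned and counted reads is not given in the sources used here. GRCm38 and mm10, both mouse builds, stand in the submitters' processing notes, although identifiers are human Ensembl. TPM keeps no depth, so no counting intervals are given.

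The 12645 genes that reached 1 TPM in 3 or more of the 6 samples were tested, as log2(TPM + 1), by limma 3.58.1 under R 4.3.3 (eBayes with trend and robust, two-sided, Benjamini-Hochberg). Groups and replicate numbers came from sample titles. The correction removed each library's natural spline trend (4 degrees of freedom each) on GC content and log2 length of the longest GENCODE release 29 transcript, available for 97.7% of tested genes. Ratios and shares used the exact permutation test. The fit was tested on simulated data. Members, lists and tests were chosen with earlier results of these data known. Named genes were all members, OGT, SREBF1, SREBF2 and up to 3 called, separated genes per wider list with the smallest adjusted p. Genes given as overlapping, as low in every library, as markers, or as ELOVL6, ALOX5AP or PTGS1 were added for those limits after their values were seen. A further immune marker is not reported here.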

Additional observations from a re-analysis of the deposited data

How the results depend on the processing

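The settings tried were a pseudocount of 0.1, no filter, a mean of at least 5 TPM (at which ACSL4 and FAR1 were not tested), quantile normalization, median centring, removal of the GC and length trend, each library left out, the replicate block, and limma without trend and robust. The median change of all tested genes was 0.30 as deposited, 0.02 after quantile normalization, -0.09 after median centring and 0.03 after removal of the GC and length trend. AGPS and FADS1 kept their direction and call in every setting. Causes of the changes below were not tested.

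Removal of the GC and length trend ended the calls of ACSL4 (0.1026), ACSL3 (0.338), ELOVL5 (0.3089), FADS2 (0.02762) and FAR1 (0.6031). Quantile normalization ended those of ACSL4 (0.4495), LPCAT3 (0.1669) and CYB5R1 (0.09655) and turned FADS2 to -0.00809. Median centring ended those of ACSL4 (0.4727) and LPCAT3 (0.1655) and turned FADS2 (-0.2231), POR (-0.245) and CYB5R1 (-0.00904) negative. With no filter, and with limma without trend and robust, ACSL4 (0.8614) and FADS2 (0.1657) were not called. POR (0.1438) was called under the stricter filter of a mean of 5 TPM (adjusted p = 0.0445).

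Deviations of same-numbered libraries from their group means correlated at -0.0194, 0.00264 and 0.0166, and 1 of 6 libraries correlated best with its own number. No pairing by number was seen, but with 3 libraries per group this check cannot exclude a weak shared effect. With the replicate block FADS2 (0.1657) was not called (adjusted p = 0.0872). Members called higher were then 8 instead of 9, beside 34.7% of tested genes instead of 39.1%. The electron donor list had 1 gene lower instead of 2, beside 8.63% of tested genes instead of 9.70%.

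With 1 library left out, the change ranged from 0.5505 to 1.101 for ACSL4, 1.001 to 1.274 for ACSL3, 0.4728 to 0.6097 for LPCAT3, 0.8982 to 1.039 for ELOVL5, 0.6327 to 0.7116 for FADS1, 0.1299 to 0.1895 for FADS2, 1.412 to 1.589 for AGPS, 1.093 to 1.336 for FAR1, 0.1029 to 0.1692 for POR and 0.3185 to 0.4854 for CYB5R1. Members called higher ranged from 6 to 8, beside 30.8% to 36.4% of tested genes. Genes called lower ranged from 1 to 2 in the ether lipid list and from 1 to 2 among electron donors, and genes called higher from 0 to 1 among lipid-oxidizing enzymes. With a pseudocount of 0.1 the difference in the AGPS to FAR1 ratio turned from positive to -0.03473. With 1 library left out, the ACSL4 to ACSL3 ratio difference ranged from -0.7234 to 0.09948 (positive only without control replicate 1), and the difference in the ACSL4 share from -2.57 (without control replicate 3) to 3.64 percentage points.

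Members called higher were 5 after quantile normalization, 5 after median centring (with 2 lower) and 4 after removal of the GC and length trend. In that order, genes called higher were 0, 0 and 0 in the ether lipid list, 0, 0 and 0 among lipid-oxidizing enzymes, and 2, 2 and 2 in the SREBP and LXR list. Median centring gave 5 higher among acyl-CoA synthetases and acyltransferases and 5 among electron donors, and removal of the GC and length trend gave 3 and 5. Genes called lower were 1 among acyl-CoA synthetases and acyltransferases after quantile normalization and 1 after median centring, 2 and 2 among lipid-oxidizing enzymes, and 2 in the SREBP and LXR list after median centring. Genes called lower were 1 in the ether lipid list with no filter, after removal of the GC and length trend, and with limma without trend and robust, which also gave 1 in the elongation list. They were 1 among electron donors with no filter, at a mean of at least 5 TPM and after removal of the GC and length trend. Lipid-oxidizing enzymes had 0 genes higher at a mean of at least 5 TPM. All tested genes called higher numbered 2558, 1937 and 1974 in the same order, and those called lower 2245 and 3066 after quantile normalization and median centring.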
